A study of Talinum fruticosum with 24 samples.

Results

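The transcripts described here are 140 of the most heavily counted features in leaves of the waterleaf Talinum triangulare (listed as Talinum fruticosum), chosen because their difference from mock-sprayed leaves became more negative in steps after leaves were sprayed with abscisic acid (ABA). They were picked from the 16461 features with a mean of at least 10 counts over 24 libraries by 6 criteria. A feature needed a mean of at least 200 CPM (the library's counts rescaled to a common total and corrected for composition) over the 4 libraries of the 40 min harvest. Its difference between ABA and mock leaves, the difference of the mean log2(CPM + 1), had to stay within 0.5 of 0 at 80 and 160 min. It then had to reach -0.4 or lower at 320 min, -0.8 or lower at 640 min and -1.2 or lower at 1280 min. In all, 730 features met the level criterion, and the 140 are 19.2% of them. Since the differences from 80 to 1280 min chose the features, they are given below as a description and without a test.

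The design crossed 2 sprays with 6 harvests. Every combination was sampled from 2 plants aged 2 months, 1 library per plant, and the 2 treated leaves of a plant were pooled. ABA leaves were sprayed on the upper surface with 200 µM of racemic ABA in dilute methanol with Tween-20, and mock leaves with methanol and Tween-20 alone. Both groups were kept well watered under the same 12 h light period, and no mutant or transgene is labelled. The first spray came 4 h into the light and the second 4 h after it, and harvests were timed from the first spray. Those of 40, 80, 160 and 320 min fell in the light, that of 640 min fell 2.7 h into the night, and that of 1280 min fell 1.3 h into the next light period. From 320 min on, the second spray, the elapsed time and the time of day cannot be told apart. Library totals ran from 16577222 to 26846579 counts. The deposited identifiers come with no gene names. Leaf marker genes could therefore not be looked up, and no role is given to any feature.

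As background, ABA is the hormone that leaves build up in drought. It closes stomata through receptors of the PYR/PYL family, which inhibit PP2C phosphatases and so free SnRK2 kinases to act on channels and transcription factors, and in many species it lowers the transcripts of photosynthesis and growth. Talinum triangulare is a C3 plant that can switch to CAM (crassulacean acid metabolism), a mode with night-time fixation of carbon dioxide into malic acid, and ABA is a known trigger of the switch. A few transcripts make up much of the messenger RNA of a mature leaf, and many leaf transcripts follow the day through the circadian clock and light.

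The 140 features together took 34.0% to 39.5% of all counts in the libraries of 40 min, and 10.002% or less in the ABA libraries of the next morning. At 40 min they held 39.3% and 39.5% of the counts in the ABA libraries, against 34.0% and 39.1% in the mock libraries, which lay lower. At 80 min they held 34.9% and 36.1% with ABA, against 34.8% and 36.0% in mock leaves, and the groups overlapped. At 160 min the shares were 26.9% and 26.3% with ABA, against 27.3% and 33.3% in mock leaves. The ABA pair lay just under the lower mock library, and mock replicate 2 stood apart on the high side.

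From 320 min on, the groups were apart in every library. At 320 min the features held 21.3% and 14.1% of counts in ABA leaves, against 29.0% and 27.7% in mock leaves. In the night, at 640 min, they held 6.25% and 4.65% with ABA, against 14.4% and 13.9% in mock leaves. At 1280 min they held 10.002% and 7.41% in ABA leaves, against 30.6% and 28.5% in mock leaves. The share in mock leaves was thus lowest at night and was near its afternoon level by morning, while in ABA leaves the morning share stayed under the night share of mock leaves. The mean share was 17.7% ± 5.12 with ABA against 28.3% ± 0.89 in mock leaves at 320 min, 5.45% ± 1.14 against 14.2% ± 0.346 at 640 min, and 8.71% ± 1.83 against 29.5% ± 1.48 at 1280 min (SD, n = 2 each). Wilson 95% intervals were narrow, for example 6.24% to 6.27% for ABA replicate 1 at 640 min, and cover counting error only. These shares are not corrected for composition. After that correction the summed CPM of the list overlapped at 40 min. It was 524154 and 513348 with ABA, against 516153 and 518732 in mock leaves. The level and the late differences behind the shares chose the features. In whole leaves, fewer cells of a type and less RNA per cell cannot be told apart.

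**Figure D1:**
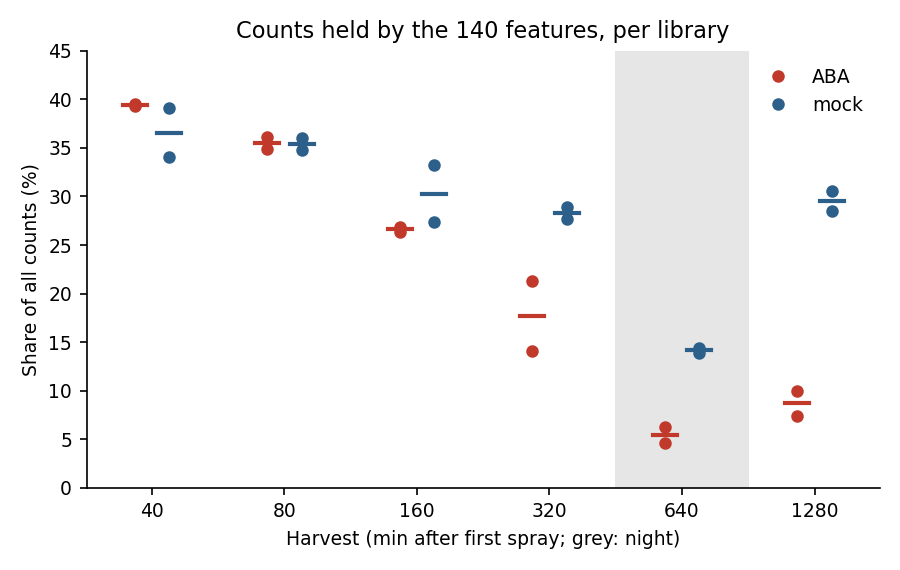
Share of all counts of a library (%) held by the 140 features, by harvest (min after the first spray); points are single libraries, bars are means of 2, and ABA stands left of mock at each harvest. The groups overlap at 80 min and lie furthest apart at 1280 min, when ABA libraries hold 10.002% and 7.41% and mock libraries 30.6% and 28.5%.

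The list is heavy at the top. The 10 most abundant features at 40 min all belonged to it, as did 33 of the 50 and 49 of the 100 most abundant. CPM is not per transcript length, so this order is one of counts and not of molecules. Within the list, 54 features of at least 2000 CPM held 33.8% of all counts at 40 min, 41 features of 500 to 2000 CPM held 3.20%, and 45 features of 200 to 500 CPM held 1.04%. The median level of the 140 was 1270 CPM, against 362 CPM in the 590 other features of at least 200 CPM, which are called the other abundant features here. The 10 most abundant features alone took 17.8% and 17.6% of counts in ABA libraries at 40 min, against 15.3% and 17.6% in mock libraries. By 1280 min they took 4.12% and 2.98% with ABA, against 14.2% and 13.2% in mock leaves.

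At 40 min, the only harvest whose difference the choice of features did not use, no feature of the list was called different between ABA and mock leaves. In edgeR's quasi-likelihood test over 17561 features, 0 of the 140 were called at a Benjamini-Hochberg adjusted p of 0.05, beside a background of 0.131% of all features tested (22 higher, 0.125%, and 1 lower, 0.00569%). DESeq2 also called 0 of them. In edgeR 0 had an unadjusted p under 0.05, against 58 of the 590 other abundant features and 3.95% of all features. The choice favours this contrast, since its limits at 80 and 160 min kept out features that differed early. With so low a background of calls, 0 of 140 does not set the list apart. The median log2 fold change was -0.0038 over the list, with a range of -0.13 to 0.17 and a median SE of 0.23, and -0.0042 over all features tested. Both ABA libraries lay under both mock libraries for 20 features (14.3%, background 16.7%) and over them for 15 (10.7%, background 16.2%). At 80 min, where the choice of features used the difference, both ABA libraries lay under both mock libraries for 9 (background 20.3%) and over them for 25 (background 21.5%). At 160 min they lay under them for 39 (background 28.3%) and over them for 0 (background 27.7%). A p that misses the threshold does not show that levels were equal, and with an SE of this size small shifts would not have been called.

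The features at the ends of that range were close to mock leaves as well. KMS95052 had 1817 and 1676 CPM with ABA at 40 min, against 1491 and 1617 CPM in mock leaves (log2 fold change 0.17 ± 0.22 SE, adjusted p = 1.00 in edgeR). KMT19797 had 374 and 427 CPM with ABA, against 461 and 419 CPM in mock leaves (log2 fold change -0.13 ± 0.25 SE, adjusted p = 1.00 in edgeR). Both ABA libraries of KMS95052 lay over both mock libraries, while those of KMT19797 overlapped them. At 1280 min KMS95052 had 798 and 559 CPM with ABA, against 1840 and 1399 CPM in mock leaves, a difference of -1.26 that is close to the criterion. KMT19797 had 16.5 and 10.9 CPM with ABA at 1280 min, against 222 and 187 CPM in mock leaves, 14.2-fold lower with ABA.

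After 160 min the difference widened from harvest to harvest for most of the list. The median difference between ABA and mock leaves, on the log2(CPM + 1) scale, lay near 0 in the first harvests, with -0.01, 0.04 and -0.17 at 40, 80 and 160 min. It was -0.91 at 320 min, then -1.33 in the night and -2.15 in the morning. Over all 16461 features the median stayed between -0.02 and 0.04 at every harvest. The other abundant features had medians of -0.25, -0.24 and -0.46 at 320, 640 and 1280 min. The median of the list at 160 min turned on mock replicate 2, being 0.05 without it and -0.41 without mock replicate 1. Of the 140 features, 114 had a lower difference at each of the steps from 320 to 640 and on to 1280 min. Another 15 were less negative at 640 than at 320 min, and 11 were less negative at 1280 than at 640 min, so the stepwise course held for most and not for all.

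**Figure D2:**
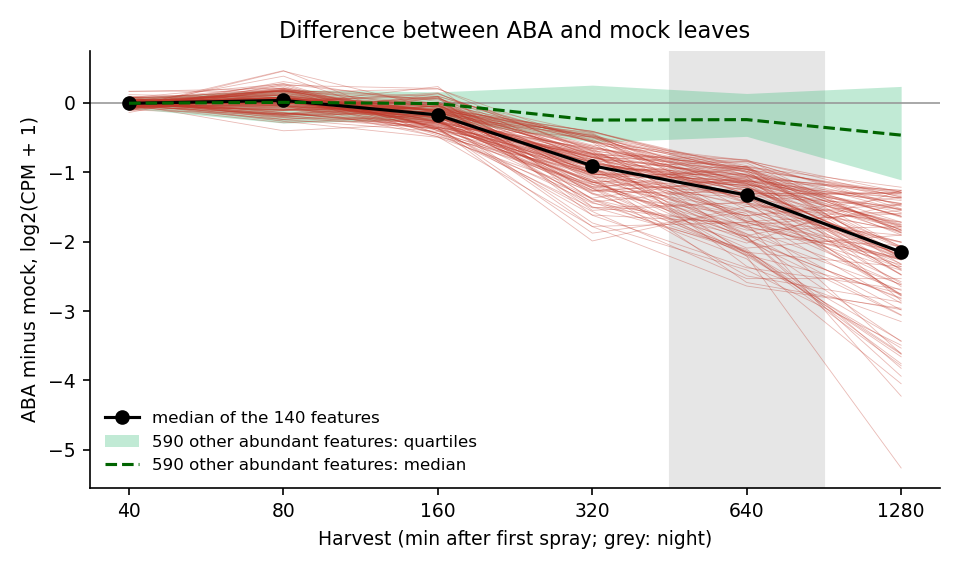
Difference between ABA and mock leaves in mean log2(CPM + 1) by harvest (min after the first spray); thin red lines are the 140 features, the black line is their median, and the green band and dashed line are the quartiles and median of the 590 other abundant features. The black line lies at -0.01 at 40 min and at -2.15 at 1280 min, while the dashed line lies at -0.46 at 1280 min; the fall from 320 min on follows from how the features were chosen.

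The size of the difference spread widely within the list. At 320 min 58 features were at least 2-fold lower with ABA (background 4.27%) and 0 were 4-fold lower (background 0.237%). At 640 min these counts were 118 (background 4.67%) and 20 (background 0.480%), and at 1280 min they were 140 (background 11.6%) and 79 (background 2.60%). At 1280 min 18 were at least 8-fold lower (background 0.601%) and 3 at least 16-fold lower (background 0.0790%). Both ABA libraries lay under both mock libraries for 140 of 140 features at each of these harvests, beside backgrounds of 35.1%, 35.9% and 34.5%, a separation that the choice of features favours. Differences at neighbouring harvests went together across the list, with r = 0.49 between 320 and 640 min and r = 0.65 between 640 and 1280 min (n = 140 features that share their libraries).

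The most abundant features had the lowest differences. The 54 features of at least 2000 CPM had median differences of -0.98, -1.72 and -2.47 at 320, 640 and 1280 min. Those of 500 to 2000 CPM had -0.86, -1.32 and -1.79, and those of 200 to 500 CPM had -0.85, -1.12 and -1.75. These lower bands lay close together at 320 and 1280 min. Across the list, the difference at 1280 min and the log2 level at 40 min correlated at r = -0.59 (n = 140 features, which share depth and scaling). The same time pattern was also found below 200 CPM, in 207 of 15731 features (1.32%). It was met by 104 of 2129 features of 50 to 200 CPM (4.89%) and 77 of 5475 features of 10 to 50 CPM (1.41%). Below that it was met by 25 of 6257 features of 1 to 10 CPM (0.40%) and 1 of 1870 features under 1 CPM. Differences at low levels carry more counting error, and the pseudocount of 1 CPM shrinks them, which makes the criteria harder to meet. How far this lowers the shares was not tested.

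The most abundant feature of all, KMS96057, was lowest in the night in both treatments. It had 37227 and 36629 CPM with ABA at 40 min, against 34462 and 37788 CPM in mock leaves. At 320 min it had 17696 and 12872 CPM with ABA, against 25449 and 24618 CPM in mock leaves. At 640 min 313 and 154 CPM were left with ABA, against 1053 and 950 CPM in mock leaves. In mock leaves this night level was down by a log2 fold change of -5.18 ± 0.35 against 40 min (SE, adjusted p = 1.02e-09 in edgeR), and the ABA libraries lay lower still. These mock libraries took part in the choice of features, so the p is a description. At 1280 min KMS96057 had 701 and 719 CPM with ABA, against 9938 and 7706 CPM in mock leaves, 12.3-fold lower with ABA.

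KMT17519, second in abundance, kept more of its level in mock leaves than in ABA leaves, at night and in the morning. It had 30042 and 27274 CPM with ABA at 40 min, against 30136 and 28448 CPM in mock leaves. At 640 min it had 3308 and 2117 CPM with ABA, against 12534 and 10901 CPM in mock leaves. At 1280 min it had 3272 and 1367 CPM with ABA, against 25717 and 20214 CPM in mock leaves, 10.8-fold lower with ABA. The 2 morning libraries of ABA leaves were far apart for this feature, and the difference of -3.43 between ABA and mock leaves moved to -2.80 when replicate 2 was left out and to -4.06 when replicate 1 was.

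The 2 features with the lowest difference at 1280 min differed in their course. KMT02867 had 764 and 373 CPM with ABA at 1280 min, against 23101 and 18195 CPM in mock leaves, 38.3-fold lower with ABA. At 640 min it had 1262 and 759 CPM with ABA, against 4971 and 4120 CPM in mock leaves. In ABA leaves the mean of the 2 libraries was thus lower in the morning than in the night, although the libraries of these harvests overlapped, and in mock leaves both morning libraries lay over both night libraries. KMT09524 had 174 and 101 CPM with ABA at 1280 min, against 2387 and 2629 CPM in mock leaves, 18.7-fold lower with ABA. It had been down at night in both treatments, with 34.9 and 31.4 CPM with ABA, against 114 and 110 CPM in mock leaves, and was higher in both by morning.

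**Figure D3:**
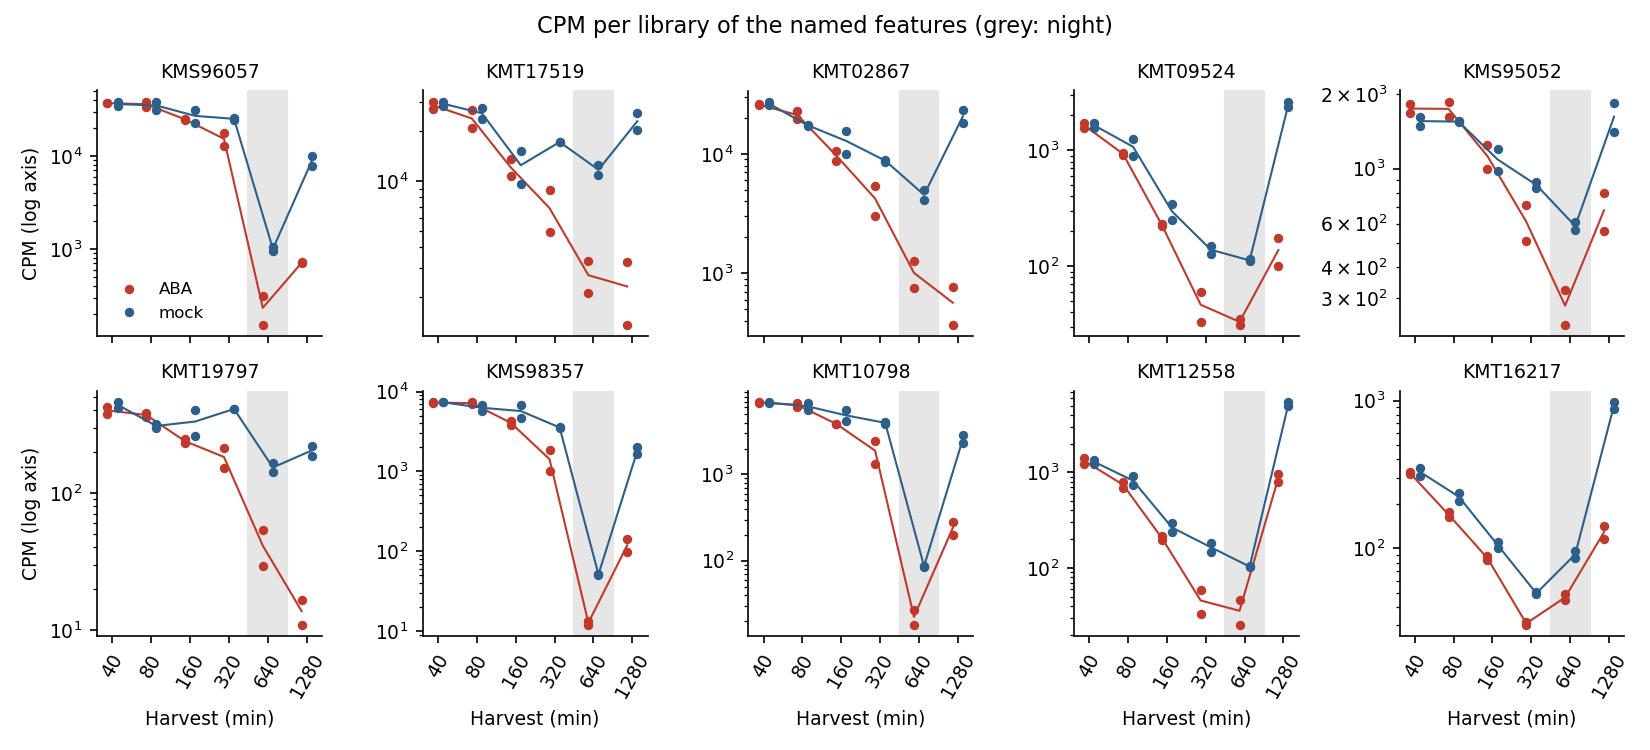
CPM (log axis) of the 10 features named by rule at each harvest (min after the first spray), with 1 point per library and lines through the means of 2 libraries; ABA stands left of mock and grey marks the night harvest. ABA and mock points lie close together at 40 min and are apart from 320 min on in all 10 panels, as the choice of features favours.

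The same features also changed over the day in leaves without ABA. The mock libraries serve as the comparison in the choice of features, which favours high mock levels at 320, 640 and 1280 min, so falls in mock leaves at those harvests run against that preference and rises run with it. The level criterion used the libraries of 40 min and favours high levels there, and with them falls from 40 min. This holds for the other abundant features too, but not for the background of all features. The tests in mock leaves thus share libraries with the choice of features, and their counts and p-values are given as a description. This holds also for features named because they fell or rose most. At 80 min against 40 min in mock leaves, 2 of the 140 features fell and 0 rose in edgeR's test, beside a background of 2.39% lower and 2.35% higher. KMT16217 had 237 and 210 CPM in mock leaves at 80 min, against 308 and 351 CPM at 40 min (log2 fold change -0.56 ± 0.13 SE, adjusted p = 0.0250 in edgeR). KMT09015, named after its values were seen, had 1100 and 1145 CPM at 80 min, against 2101 and 1852 CPM at 40 min (log2 fold change -0.81 ± 0.22 SE, adjusted p = 0.0418 in edgeR). In both features the libraries of 80 min lay under those of 40 min. Neither call held without mock replicate 1 of 40 min, without replicate 2 of 40 min or without replicate 2 of 80 min. That of KMT09015 was also lost without replicate 1 of 80 min. In these runs the log2 fold change ran from -0.647 to -0.455 for KMT16217 and from -0.899 to -0.721 for KMT09015. Over the alternatives the adjusted p ran from 0.000561 to 0.232 for KMT16217 and from 0.00382 to 0.237 for KMT09015. DESeq2 called 6 features.

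By 160 min most of the list had fallen in mock leaves. In edgeR's test of 160 min against 40 min, 96 of the 140 features (68.6%) were lower and 0 higher, beside a background of 14.5% lower and 12.4% higher and 273 of the 590 other abundant features lower. The median log2 fold change was -0.83 over the list, -0.53 over the other abundant features and 0.00 over all features tested. Fewer were called without mock replicate 1 of 160 min and more without replicate 2. The median change in log2(CPM + 1) from 40 min was then -0.61 and -1.09. Scaling to library size alone gave 41 calls and moved the median change of all features in mock leaves to 0.44. Relative to all features the list lay at -0.73, against -0.85 with correction for composition.

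At 320 min, still in the light, 86 of the 140 features were lower in mock leaves than at 40 min and 1 was higher, beside a background of 22.4% lower and 22.2% higher. Of the other abundant features, 335 of 590 were lower and 50 higher. The median log2 fold change was -0.73 over the list and -0.80 over the other abundant features. Under library size alone 40 of the list were lower and 12 higher. That scaling moved the median change of all features in mock leaves to 0.46, against 0.01 with correction for composition. Relative to all features the list lay at -0.62, against -0.74 with that correction. The feature that rose, KMS97266, was named after its values were seen. It had 812 and 783 CPM in mock leaves at 320 min, against 521 and 517 CPM at 40 min (log2 fold change 0.62 ± 0.16 SE, adjusted p = 0.00356 in edgeR). In ABA leaves it had 479 and 367 CPM at 320 min.

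The night brought the lowest mock levels for 101 of the 140 features, and for 280 of the 590 other abundant features. In edgeR's test of 640 min against 40 min in mock leaves, 126 of the 140 (90.0%) were lower and 0 higher, beside a background of 25.7% lower and 26.6% higher. Of the other abundant features, chosen by the same level criterion, 440 of 590 (74.6%) were lower and 16 higher. The median log2 fold change was -1.85 over the list, -1.04 over the other abundant features and 0.04 over all features tested, and 108 of the list were both past the threshold and at least 2-fold lower (background 15.3%). Under library size alone, 87 of the list were lower and 14 higher. That scaling moved the median change of all features in mock leaves to 0.84, against 0.03 with correction for composition, and the list lay 1.68 and 1.87 under that median on the log2 scale.

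The pair that fell most at night stood under 100 CPM in the dark. KMS98357 had 50.2 and 52.3 CPM in mock leaves at 640 min, against 7365 and 7319 CPM at 40 min (log2 fold change -7.17 ± 0.34 SE, adjusted p = 8.16e-12 in edgeR). KMT10798 had 85.0 and 87.3 CPM at 640 min, against 6958 and 6723 CPM at 40 min (log2 fold change -6.32 ± 0.34 SE, adjusted p = 4.39e-11 in edgeR). Both night libraries of both features lay far under the libraries of 40 min. With ABA the night levels were lower again, at 13.5 and 12.0 CPM for KMS98357 and 26.5 and 17.9 CPM for KMT10798. The changes from 40 to 640 min in ABA and in mock leaves went together across the list, with r = 0.98 (n = 140 features chosen by the difference between the treatments).

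In the next morning the list stood closer to its 40 min level in mock leaves than in ABA leaves, as the criterion at 1280 min favours. The mean level was higher at 1280 than at 640 min for 103 of the 140 features in ABA leaves and for 128 in mock leaves. The median change was 0.89 in ABA leaves and 1.56 in mock leaves on the log2(CPM + 1) scale. Over the other abundant features it was 0.34 and 0.75, and 381 and 409 of the 590 were higher. Over all features it was -0.02 and -0.05. Relative to 40 min, the median level at 1280 min was -2.46 in ABA leaves and -0.33 in mock leaves. ABA leaves were under their own 40 min level at 1280 min for 139 of the 140 features, and mock leaves for 104. Among the other abundant features these counts were 465 and 368 of 590, and among all features 8338 and 8195 of 16461. The choice of features favours the count in ABA leaves, so it is a description. The exception in ABA leaves, KMT18241, was named after its values were seen. It had 985 and 886 CPM with ABA at 1280 min, against 868 and 806 CPM with ABA at 40 min, and 2514 and 2064 CPM in mock leaves at 1280 min.

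**Figure D4:**
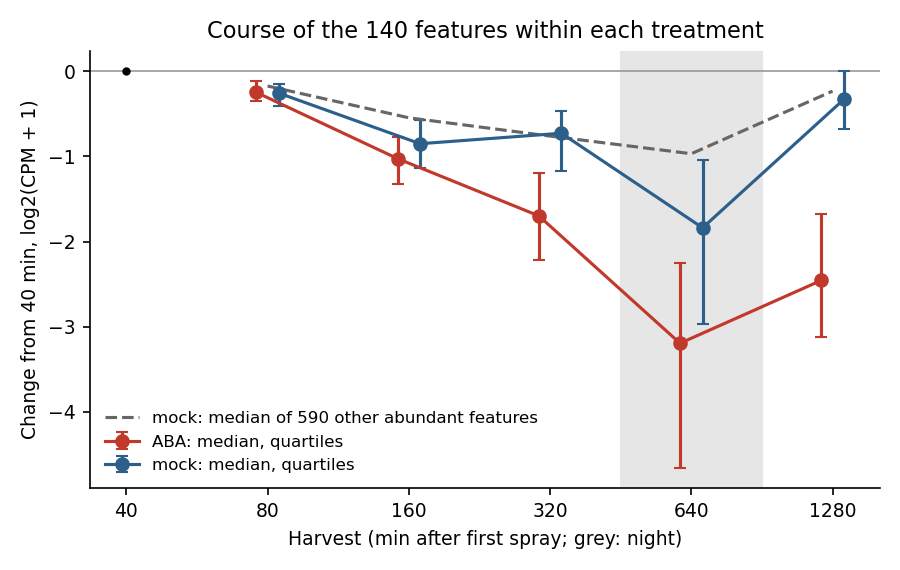
Median and quartiles over the 140 features of the change from 40 min in mean log2(CPM + 1), in ABA leaves (red) and mock leaves (blue), by harvest (min after the first spray); the dashed line is the mock median of the 590 other abundant features. Mock leaves reach -1.84 in the night and -0.33 in the morning, and ABA leaves -3.19 and -2.46.

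Against 40 min, mock leaves of 1280 min differed in both directions. In edgeR's test 14 of the 140 features were higher and 44 lower, beside a background of 24.2% higher and 23.8% lower, and 82 did not pass the threshold. Of the other abundant features 120 were higher and 230 lower. Fewer were called when any 1 mock library of 40 or 1280 min was left out. The median change of the list in log2(CPM + 1) then ran from -0.42 to -0.20. KMT12558 rose most, with 4985 and 5476 CPM in mock leaves at 1280 min, against 1234 and 1350 CPM at 40 min (log2 fold change 2.00 ± 0.27 SE, adjusted p = 7.07e-06 in edgeR). KMT16217 had 979 and 880 CPM, against 308 and 351 CPM at 40 min (log2 fold change 1.48 ± 0.13 SE, adjusted p = 8.26e-08 in edgeR). With ABA at 1280 min KMT12558 had 953 and 803 CPM and KMT16217 had 115 and 141 CPM, all under their ABA libraries of 40 min.

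The features that stood lowest in the mock morning relative to their 40 min level were KMS96057 and KMS98357, both also far down at night. KMS96057, whose libraries are given above, stood at -2.05 ± 0.31 (log2 fold change and SE, adjusted p = 2.52e-05 in edgeR) at 1280 min against 40 min in mock leaves. KMS98357 had 1996 and 1634 CPM in mock leaves at 1280 min, against 7365 and 7319 CPM at 40 min (log2 fold change -2.03 ± 0.27 SE, adjusted p = 5.73e-06 in edgeR). With ABA at 1280 min KMS98357 had 140 and 97.2 CPM. The calls for these 4 features in the morning, and for KMS98357 and KMT10798 at night, held in 12 of 12 alternatives each.

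By the harvest of highest mock level, the list fell into 94 features highest at 40 min, 36 highest at 1280 min and 10 highest at another harvest (2 at 80 min, 3 at 320 min and 5 at 640 min). In ABA leaves 131 were highest at 40 min, 8 at 80 min and 1 at 1280 min. The other abundant features of mock leaves peaked more widely, with 167 and 104 of 590 at 40 and 80 min, 96 at 320 min and 191 the next morning. Since mock levels at late harvests take part in the choice of features, these counts are a description.

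The 94 features highest at 40 min stood in mock leaves at a median of -1.94 at night, relative to 40 min, and at -0.48 in the morning. The negative sign of these mock values follows from the grouping. In ABA leaves these 94 stood at -3.39 at night and -2.85 in the morning. The 36 features highest at 1280 min were lower during the day, with a median of -1.48 in mock leaves at 320 min, against -0.66 in the 94. In ABA leaves these 36 stood at -2.38 at 320 min and, after a median rise of 1.59 from night to morning, at -1.29 at 1280 min. Each of the 36 was higher at 1280 than at 640 min in ABA leaves. The grouping fixes the same for mock leaves, where the median rise was 2.38. The 10 others stood at -1.18 at 640 min in ABA leaves and at -0.04 in mock leaves. Median differences between ABA and mock leaves at 1280 min were -2.24, -1.75 and -1.69 in the 3 groups.

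**Figure D5:**
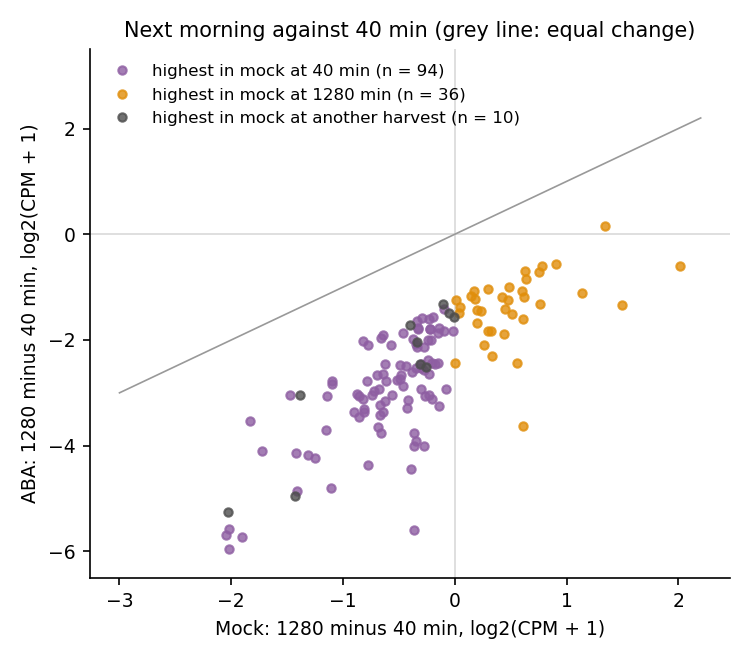
Change from 40 to 1280 min in mean log2(CPM + 1) of each of the 140 features, in mock leaves (horizontal) and in ABA leaves (vertical), coloured by the harvest of highest mock level; the grey line marks equal change. All points lie under the line, and 1 of 140 lies above 0 in ABA leaves, against 36 in mock leaves.

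At some harvests most of the list was shifted the same way between the 2 plants of a group, and at 40 min it was not. The choice of features used the means of these same libraries, and a low ABA or a high mock library at a late harvest helps a feature to be chosen, so the shifts are a description. At 40 min 81 of the 140 features were lower in ABA replicate 2 than in replicate 1, and 67 were lower in mock replicate 2. At 160 min 139 of the 140 features were higher in mock replicate 2 than in replicate 1, with a median difference of 0.49 on the log2(CPM + 1) scale, against -0.01 over all features. At 320 min 138 were lower in ABA replicate 2 than in replicate 1, by a median of -0.58 against 0.01 over all features. At 1280 min 135 were lower in ABA replicate 2 and 133 in mock replicate 2, with medians of -0.51 and -0.24, against 0.03 and -0.01 over all features. In the remaining groups, replicate 2 was lower for 26 (ABA) and 34 (mock) features at 80 min, for 112 at 160 min in ABA leaves, for 111 at 320 min in mock leaves, and for 108 (ABA) and 120 (mock) at 640 min. The replicates of the other abundant features differed less as a group. Their medians were 0.09 in mock leaves at 160 min, 0.11 in ABA leaves at 320 min and -0.07 in ABA leaves at 1280 min. In mock leaves at 1280 min the median was -0.09, with 434 of the 590 lower in replicate 2, the same direction as in the list. In ABA leaves at 640 min 220 of the 590 were lower in replicate 2. Leaving out ABA replicate 2 changed the median difference between ABA and mock leaves to -0.61 at 320 min and -1.85 at 1280 min, and leaving out replicate 1 changed it to -1.19 and -2.37.

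Which features belonged to the list depended on the scaling. Scaling to library size alone left 62 of the 140 and added 0. It moved the median difference of all features at 1280 min to 0.56, against 0.04 with correction for composition, and that of the list to -1.46. Relative to all features the list lay at -2.02 with library size alone and at -2.19 with correction for composition. Leaving out 1 library at a time gave 102 to 152 features, the fewest without mock replicate 1 of 160 min and the most without mock replicate 2 of 160 min, and 56 of the 140 were kept in all 24 such settings. Just inside the criteria, the lowest level was 208 CPM and the highest differences were -0.41, -0.82 and -1.22 at 320, 640 and 1280 min. Just outside, with all other criteria met, the nearest level was 198 CPM and the nearest differences were -0.40, -0.79 and -1.18. At 80 and 160 min the sizes of the difference nearest to the limit were 0.46 and 0.50 inside it and 0.53 and 0.51 outside.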

How the data were processed

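Polyadenylated RNA of leaves was sequenced as strand-specific single reads of 150 bp, per the labels' protocols. The authors deposited whole-number counts per feature, 1 list per library, and features not listed were taken as 0. Tools named, per the submitters' processing notes, are CASAVA, Trimmomatic and DESeq2. With aligner, counter, reference and strand setting not given in the sources used here, near-identical or overlapping features may share reads. Counts of the 2 plants of a group varied beyond sampling (lowest ratio of chi-square to its degrees of freedom 5.43), so none was merged. The submitters state that they corrected the sample labels after deposit, and the corrected labels were used. CPM used edgeR 4.0.16 TMM factors (0.659 to 1.69) in R 4.3.3 on features with a mean count of at least 10, and differences used a pseudocount of 1 CPM. Tests were edgeR quasi-likelihood F-tests (two-sided, robust) on 17561 features kept by the expression filter (minimum count 10), with 1 mean per group, all 24 libraries, 12 residual degrees of freedom and Benjamini-Hochberg adjustment at 0.05. SE is the log2 fold change divided by the root of F. The fit was tested on simulated data. Wilson intervals are at 95%. Named features are the 2 most abundant, the 2 of lowest difference at 1280 min, the ends of the 40 min range, and in mock leaves at 640 and 1280 min up to 2 that rose most and 2 that fell most. The features and lists were chosen with earlier results of these data known. Alternatives were other scalings, filters, pseudocounts, thresholds, DESeq2 1.42.0, subsets of libraries and a replicate block. No batch is labelled.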

Additional observations from a re-analysis of the deposited data

How the results depend on the processing

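Of the recomputed values, 400 stayed within their limits. The limit was the replicate spread for medians and differences, and a set ratio to the main count for counts. Named calls had to keep their direction and stay past the threshold. Another 46 values moved further, 26 were counts that fell or named calls that were lost, and 2 were counts that rose. Direction was compared for named calls only, and 0 reversed. With library size alone the count at 640 min stayed within its limit, although 14 features were called higher, against 0 in the main run. For ABA against mock at 40 min every alternative run gave 0 calls, with a lowest adjusted p of 0.999. Calls in mock leaves at 80 min against 40 min were 0 at a threshold of 0.01, 0 with library size alone, 0 with the libraries of those harvests alone and 6 with DESeq2. With library size alone the calls at 160 and 320 min were 41 and 52, and at a threshold of 0.01 those at 1280 min were 35. Backgrounds over all features were not counted in these alternative runs. Library size alone found 62 features by the same criteria. It gave median differences between ABA and mock leaves of 0.10 at 40 min, -1.10 at 640 min and -1.46 at 1280 min. It gave median changes from 40 min in ABA leaves of -0.56, -0.97, -2.09 and -1.81 at 160, 320, 640 and 1280 min, and in mock leaves of -0.068, -0.29, -0.16 and -0.84 at 80, 160, 320 and 640 min. The cause was not tested beyond the shift of all features under that scaling.

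Leaving out 1 library gave 0 to 4 calls at 80 min, 43 to 106 at 160 min, 61 to 69 at 320 min, 115 to 121 at 640 min and 32 to 45 at 1280 min in mock leaves, and 102 to 152 features in the list. Median differences between ABA and mock leaves ran from -0.02 to 0.01 at 40 min, -0.058 to 0.099 at 80 min, -0.41 to 0.054 at 160 min, -1.19 to -0.61 at 320 min, -1.38 to -1.14 at 640 min and -2.37 to -1.85 at 1280 min. Median changes from 40 min in ABA leaves ran from -3.43 to -2.92 at 640 min and -2.72 to -2.17 at 1280 min. In mock leaves they ran from -0.34 to -0.17 at 80 min, -1.09 to -0.61 at 160 min, -0.74 to -0.70 at 320 min, -1.86 to -1.80 at 640 min and -0.42 to -0.20 at 1280 min. Over all features tested, same-numbered ABA and mock libraries deviated together at r from -0.14 to 0.12. This cannot show whether the replicate numbers pair plants. Within the list, replicate 2 was lower for 135 (ABA) and 133 (mock) features at 1280 min, but for 112 (ABA) and 1 (mock) at 160 min. A replicate block gave 0 calls at 40 min for ABA against mock, and 2, 96, 87, 126 and 59 calls for the mock harvests from 80 to 1280 min, and changed no named call. With 2 plants per group, p-values rest on a spread shared across groups.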
